A study of Mus musculus with 6 samples.

Results

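The 10 mitochondrially encoded protein genes described here are mt-Nd1, mt-Nd2, mt-Nd3, mt-Nd4, mt-Nd5, mt-Co1, mt-Co2, mt-Co3, mt-Cytb and mt-Atp6. They were taken by their symbols, and all 10 were found among the 16199 gene symbols of the table. The other mitochondrial protein genes of the table, mt-Nd6, mt-Nd4l and mt-Atp8, were not chosen and are given only for comparison. All libraries came from mouse myocardium on day 7 of a myocardial infarction made by tying off (ligating) the LAD, a main artery of the heart. Of the 6 libraries, 3 carry the genotype wild type and 3 the genotype ITIH5 knockdown, and both groups had the ligation. The sources used here do not give strain, age or how the knockdown was made, nor do they say whether each library is a different animal. All p-values below therefore weigh a difference only against how these libraries vary, which may be technical variation.

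Values are on a scale close to TPM, a share of the reads corrected for gene length, and their adjustment between libraries by the authors is not stated. The columns summed to between 901563 and 1159657, and read depth is unknown. In each library nearly all low values lay near whole multiples of a step, and the step differed between libraries, from 0.889 to 1.163. Counted in steps, the column sums were 997126 to 1014131. How the step arose is not stated. Itih5, the gene named in the labels, had wild-type values of 9.73, 13.1 and 17.2 and labelled knockdown values of 18.4, 10.5 and 19.96 (replicates 1, 2 and 3), so the groups overlapped and every direction below refers to the labels. The library labelled knockdown replicate 1 stood apart: it had 212 values at 0 and 1078 above 0 but under 0.2 (1290 in all), where the others had 731 to 1082 at 0 and none above 0 but under 0.2, and it had the largest sum of heart muscle genes. Heart muscle markers were present throughout, with none of the 12 listed at 0 in any library.

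Mitochondria keep a small circular genome whose protein genes all encode membrane subunits of the machines of oxidative phosphorylation. The mt-Nd genes encode core subunits of complex I, which takes electrons from NADH. The gene mt-Cytb encodes the cytochrome b of complex III, the mt-Co genes encode the catalytic core of complex IV, which hands electrons to oxygen, and mt-Atp6 encodes a part of the proton channel of ATP synthase. Most of these genes are transcribed together from one strand as a long precursor, which is cut at the tRNAs between them, and the messages receive short poly(A) tails. Heart muscle is among the tissues richest in mitochondria. Old copies of mitochondrial DNA also lie in the nuclear chromosomes, and reads from a gene and from a copy of the same sequence cannot be told apart.

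Of the 10 genes, 4 share nearly all of their exact sequence with annotated nuclear transcripts. The other 6 share less, from none to 62.2%. Each gene was cut into all its windows of 50 bases, and each window was looked for in 141730 transcripts of the nuclear chromosomes (GENCODE M21, build mm10). Of the windows, 100% were found for mt-Co2, 99.9% for mt-Co3, 99.5% for mt-Atp6 and 97.99% for mt-Nd3. The share was 62.2% for mt-Nd4, 51.1% for mt-Co1, 8.19% for mt-Nd2 and 7.61% for mt-Nd5, and no window was found for mt-Nd1 or mt-Cytb. With windows of 100 bases the first 4 genes stayed between 97.6% and 99.9%, and mt-Co1 came to 30.8%.

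The leading copies of the first 4 genes lie side by side in the nuclear genome. Within chr1:24611535-24616197 of mm10, 7 annotated unprocessed pseudogenes follow each other on the minus strand, copies of part of mt-Co1 (Gm29216), mt-Co2 (Gm28661), mt-Atp6 (Gm10925), mt-Co3 (Gm28437), mt-Nd3 (Gm28438), mt-Nd4l (Gm10222) and mt-Nd4 (Gm28439), in the order of the mitochondrial map when read along that strand. None of the 14 nuclear copies that share a window is a row of the table. The copy of mt-Co3 had 0 mismatches over 783 aligned bases, that of mt-Atp6 had 0 over 678 and that of mt-Co2 had 0 over 681. The copy of mt-Nd3 had 1 mismatch over 345 bases, and the copy of mt-Nd4 had 0 but reached over only 876 of 1378 bases.

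The middle of each aligned stretch is shown for mt-Co3, which has an identical copy, and for mt-Nd2, whose leading copy has diverged. For mt-Cytb, which has no shared window, a copy picked by hand (Gm11410) is shown. Whether Gm11410 is its closest nuclear copy was not tested. Mismatched bases are in capitals. The sequences are the annotated transcripts, read 5′ to 3′. The stretches are chrM:8968-9027 (plus strand) and chr1:24613551-24613610 (minus strand) for mt-Co3 and Gm28437, chrM:4667-4726 (plus) and chr2:22590249-22590308 (minus) for mt-Nd2 and Gm13339, and chrM:14686-14745 (plus) and chr4:80004530-80004589 (plus) for mt-Cytb and Gm11410.
mt-Co3: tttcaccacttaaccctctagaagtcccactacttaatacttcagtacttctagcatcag
Gm28437: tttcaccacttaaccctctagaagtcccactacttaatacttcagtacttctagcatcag
mt-Nd2: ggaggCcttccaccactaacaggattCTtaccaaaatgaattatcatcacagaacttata
Gm13339: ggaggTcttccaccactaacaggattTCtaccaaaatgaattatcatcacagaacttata
mt-Cytb: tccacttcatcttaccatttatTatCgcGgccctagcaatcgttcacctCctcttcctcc
Gm11410: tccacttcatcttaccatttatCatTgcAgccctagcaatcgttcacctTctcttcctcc
The 60 bases of mt-Co3 and Gm28437 are the same letter for letter, so a read from this stretch fits both places equally. The window of mt-Nd2 has 3 mismatches and that of mt-Cytb has 4. Over the whole aligned stretch the copies were 96.7% identical for mt-Nd2 (510 bases) and 92.8% for mt-Cytb (1143 bases).

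Levels split with the share of windows found, at limits of 65% and 90% set after the levels were seen. In each library, the 6 genes with under 65% of their windows shared (mt-Co1, mt-Cytb, mt-Nd1, mt-Nd2, mt-Nd4 and mt-Nd5) lay above the 4 genes with over 90% (mt-Co2, mt-Co3, mt-Atp6 and mt-Nd3). Over all libraries the first 6 ran from 4850 to 129391 and the other 4 from 190 to 5669. These 4 are also the shortest of the 10, at 348 to 784 bases against 957 to 1824. Length and shared sequence therefore cannot be told apart among the 10. The 4 low genes made up 1.46% to 2.03% of the 10-gene total in wild type, against 3.84%, 2.01% and 2.55% in the labelled knockdown group replicates 1, 2 and 3. How the authors treated reads that fit several places is not given in the sources used here, and the part of the nuclear copies in these levels was not tested. Values of mt-Co2, mt-Co3, mt-Atp6 and mt-Nd3 are therefore uncertain, and in part also those of mt-Nd4 (62.2% shared) and mt-Co1 (51.1%).

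**Figure D1:**
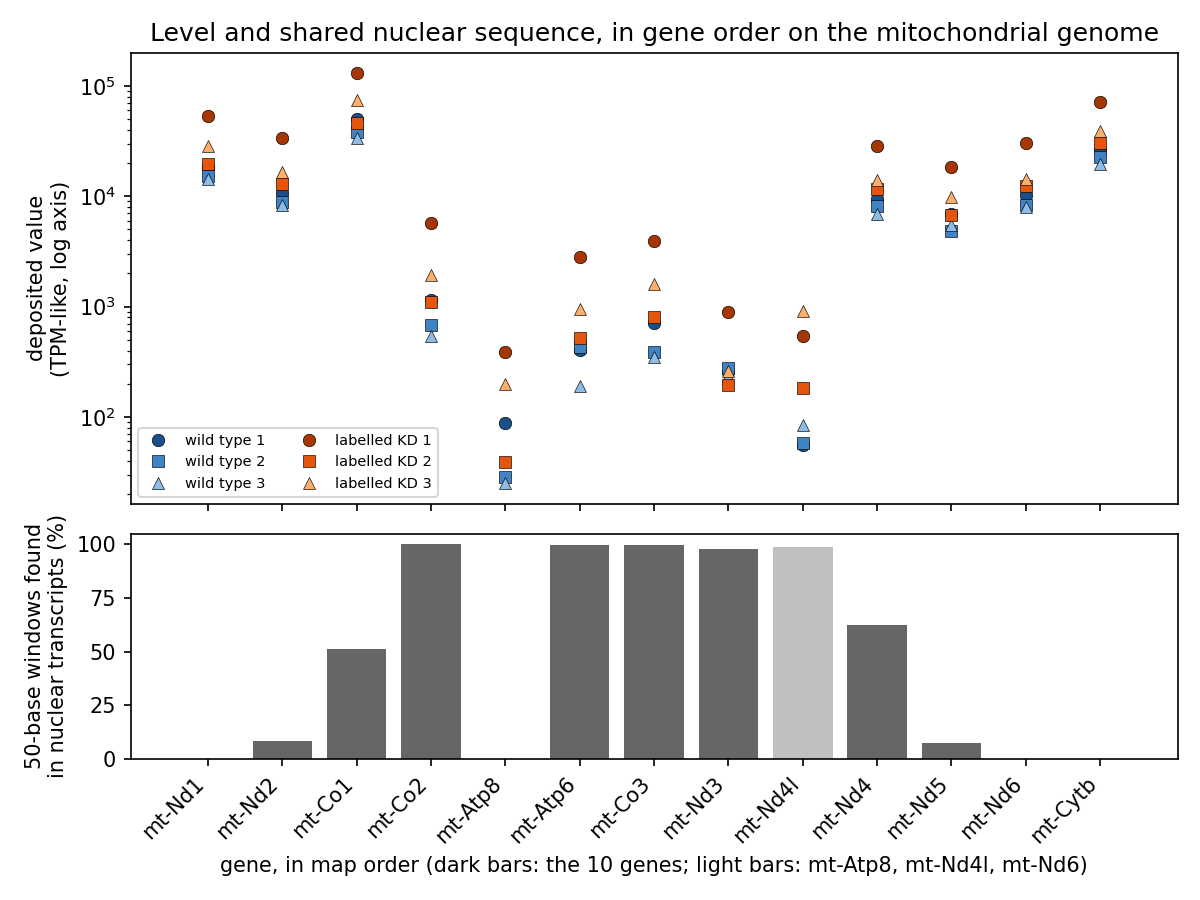
The upper panel plots the deposited value (TPM-like, log axis) of the 13 mitochondrial protein genes in map order, 1 point per library; the lower panel gives the percent of each gene's 50-base windows found in nuclear transcripts, where mt-Nd1, mt-Atp8, mt-Nd6 and mt-Cytb are at 0. The genes between mt-Co1 and mt-Nd4 on the map lie below all others in each library.

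The complex IV genes show the split within one enzyme. The gene mt-Co1, at chrM:5328-6872, encodes the subunit that holds the oxygen-binding site. It was at 50143, 37923 and 33938 in wild type, against 129391, 46450 and 73718 in the labelled knockdown group, the highest value of the whole table in each of the 6 libraries. The gene mt-Co2 (chrM:7013-7696) encodes the subunit that receives electrons from cytochrome c. It was at 1152, 685 and 537 against 5669, 1092 and 1951. The gene mt-Co3 (chrM:8607-9390) was at 713, 385 and 347 against 3926, 805 and 1594. Only for mt-Co3 among these 3 genes did the groups not overlap. The ratio of mt-Co1 to mt-Co2 was 43.5, 55.4 and 63.2 in wild type, against 22.8, 42.5 and 37.8 in the labelled knockdown group. The groups did not overlap, but 43.5 lay only just above 42.5. The ratio of mt-Co2 to mt-Co3 was 1.62, 1.78 and 1.55 against 1.44, 1.36 and 1.22, also without overlap. The ratios between genes were picked by hand and not tested, and most of those looked at overlapped between the groups.

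For complex III, mt-Cytb (chrM:14145-15288) had the second highest value of the table in each library. It was at 26008, 22567 and 19569 in wild type, against 71028, 30238 and 38961 in the labelled knockdown group, without overlap. Its ratio to mt-Nd1 lay between 1.34 and 1.55 in all 6 libraries, at 1.42 ± 0.0634 (SD, n = 3) in wild type and 1.42 ± 0.113 (SD, n = 3) in the libraries labelled knockdown. Both genes have no window of 50 bases in the nuclear transcripts searched.

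Of the complex I genes, mt-Nd1 (chrM:2751-3707) was at 18478, 15117 and 14295 in wild type, against 52982, 19504 and 28421 in the labelled knockdown group. The gene mt-Nd2 (chrM:3914-4951) was at 10705, 8918 and 8369 against 33667, 12949 and 16689. For mt-Nd4 (chrM:10167-11544) the values were 9347, 8119 and 6940 against 28287, 11557 and 14078. These 3 genes, which encode subunits of the proton-pumping membrane arm, did not overlap between the groups, and each was lowest in wild-type replicate 3 and highest in the library labelled knockdown replicate 1. The gene mt-Nd5 (chrM:11742-13565), at 6950, 4850 and 5476 against 18210, 6701 and 9935, overlapped, since wild-type replicate 1 lay above the library labelled knockdown replicate 2. The shortest of the 10, mt-Nd3 (chrM:9459-9806), was at 257, 275 and 235 against 896, 194 and 262. For mt-Nd3 the library labelled knockdown replicate 1 stood alone and the other libraries of that group lay about the wild-type range.

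For ATP synthase, mt-Atp6 (chrM:7927-8607) was at 404, 433 and 190 in wild type, against 2841, 520 and 948 in the labelled knockdown group, without overlap. Between the highest and the lowest library it spanned 14.97-fold, more than the other 9 genes. Among the 6 genes with under 65% of their windows shared that span ran from 3.63-fold to 4.08-fold. Among the 4 with over 90% shared it ran from 4.62-fold to 14.97-fold.

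The order of levels, which are per length, was nearly fixed. In each of the 6 libraries it ran mt-Co1, mt-Cytb, mt-Nd1, mt-Nd2, mt-Nd4, mt-Nd5, mt-Co2. Lower down, mt-Co3 was above mt-Atp6 in 5 of 6 libraries and mt-Atp6 above mt-Nd3 in 5 of 6, so their order was not fixed. Within a library, mt-Co1, mt-Cytb and mt-Nd1 took the first 3 places of the whole table, while mt-Nd3 ranked between 139 and 652.

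Together the 10 genes made up, on average, a larger part of the column in the libraries labelled knockdown. Their sum was 12.7%, 10.6% and 9.97% of the column in wild-type replicates 1, 2 and 3, and 29.9%, 13.5% and 18.7% in the libraries labelled knockdown. The groups did not overlap, but the lowest library labelled knockdown lay only just above the highest wild-type library. The wild-type mean was 11.1% ± 1.44 (SD, n = 3) and that of the labelled knockdown group 20.7% ± 8.38 (SD, n = 3). Without the library labelled knockdown replicate 1 the difference of the means fell from 9.62 to 5.02 percentage points. The sum of all genes outside the mitochondrial genome was 841379, 830753 and 803494 in wild type, against 781242, 819907 and 795404 in the labelled knockdown group. These sums come from columns of unequal total, so they do not show the parts of a column. Wild-type replicate 1 had both the largest such sum and the largest 10-gene total (124157) of its group. As percents of a column, a larger mitochondrial part goes with a smaller part for the rest.

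**Figure D2:**
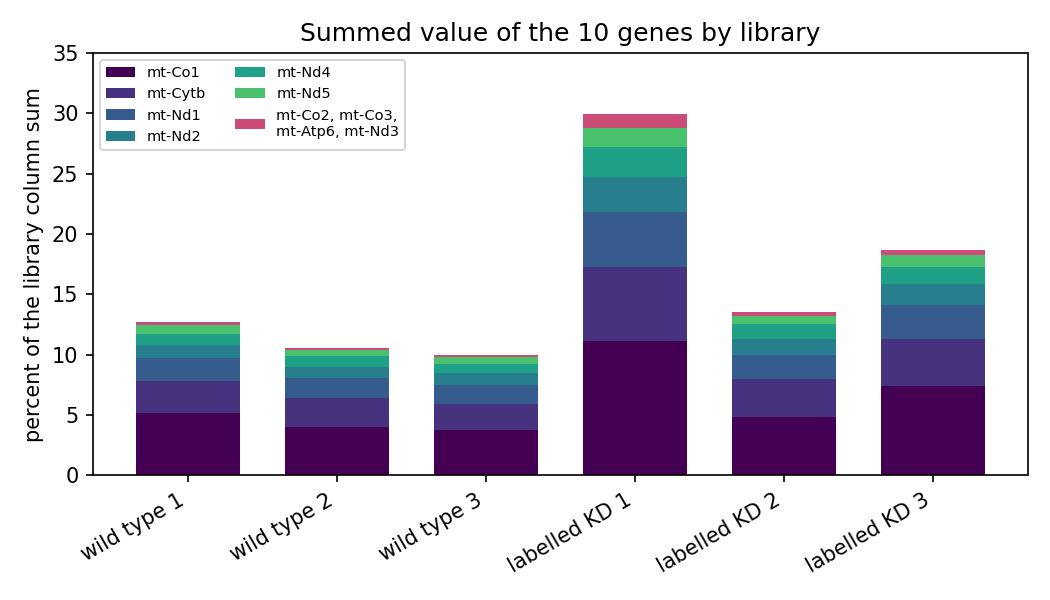
Stacked bars give the value of the 10 genes as a percent of the column sum of each library, with the 4 genes of nearly fully shared sequence joined in 1 segment. The wild-type bars end between 9.97% and 12.7%, and the bars of the libraries labelled knockdown at 29.9%, 13.5% and 18.7%.

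Gene by gene, all 10 had a higher mean in the libraries labelled knockdown, and none passed the test. Fold changes are on the log2(value + 1) scale, labelled knockdown minus wild type, from a two-sided limma fit over 14025 genes with Benjamini-Hochberg adjustment. Of the 10 genes 0 were called, where 0% of all genes tested were called higher and 0% lower. The median log2 difference of the 10 was 1.00, beside 0.00461 over all genes tested, and 50.8% of all genes had a higher mean. The groups did not overlap for 6 of the 10 (mt-Nd1, mt-Nd2, mt-Nd4, mt-Co3, mt-Cytb and mt-Atp6), all with the higher values in the libraries labelled knockdown, beside 12.6% of all genes tested on the higher side and 9.88% on the lower. At an unadjusted p under 0.05 there were 5 of the 10, all higher, beside 8.29% of all genes on the higher side and 6.55% on the lower. The 10 genes are not independent of each other, since they come from shared precursors and share libraries. Between libraries their log2 values had Pearson correlations from 0.77 to 0.999 over the 45 pairs (median 0.98, n = 6 libraries), the lowest for pairs with mt-Nd3.

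The largest differences among the 10 belonged to mt-Co3, mt-Atp6 and mt-Co2, which have nearly fully shared sequence. They were 1.91 for mt-Co3 (95% interval 0.58 to 3.23, limma adjusted p = 0.296), 1.80 for mt-Atp6 (0.35 to 3.25, adjusted p = 0.301) and 1.61 for mt-Co2 (0.23 to 2.99, adjusted p = 0.308). The 6 genes with under 65% of their windows shared lay close together, from 0.91 for mt-Nd5 (-0.02 to 1.83) to 1.06 for mt-Nd2 (0.11 to 2.02). Among them mt-Co1 had the widest interval, -0.35 to 2.20 about 0.93 (adjusted p = 0.424). The smallest of the 10 was mt-Nd3, which is also nearly fully shared, at 0.49 (-0.72 to 1.70, adjusted p = 0.639). Adjusted p-values of the 10 thus ran from 0.296 to 0.639.

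Much of the size rested on 1 library. Without the library labelled knockdown replicate 1 the median log2 difference of the 10 genes was 0.63, with 9 of 10 higher, and mt-Nd3 was at -0.17. The values of the left-out library were 3.13-fold to 3.61-fold the wild-type mean for the 6 genes with under 65% of their windows shared. The mean of replicates 2 and 3 of that group over the wild-type mean was 1.44-fold to 1.59-fold for the same 6 genes. For mt-Co2, mt-Co3 and mt-Atp6 the library labelled knockdown replicate 1 was at 7.16, 8.15 and 8.30 times the wild-type mean, and the mean of the other libraries of the group at 1.92, 2.49 and 2.14 times.

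Read relative to each other within a library, the 6 genes with under 65% of their windows shared kept nearly the same proportions. The gene mt-Co1 took 40.4%, 38.2% and 37.8% of the 10-gene total in wild type, against 37.3%, 35.7% and 39.5% in the labelled knockdown group. For mt-Nd1 the shares were 14.9%, 15.2% and 15.9% against 15.3%, 15.0% and 15.2%. The share of mt-Cytb was 20.9%, 22.7% and 21.8% against 20.5%, 23.3% and 20.9%. Those of mt-Nd2 (8.62% to 9.96%), mt-Nd4 (7.53% to 8.89%) and mt-Nd5 (4.89% to 6.09%) overlapped between the groups too. For these 6 genes the highest share was 1.07 to 1.25 times the lowest over the 6 libraries, although the 10-gene total itself went from 89895 to 346896. Together they made up 96.2% to 98.5% of that total, so the division itself holds their shares steady in part.

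The 4 genes with nearly fully shared sequence varied more. The share of mt-Co3 was 0.574%, 0.388% and 0.386% in wild type, against 1.13%, 0.619% and 0.854% in the labelled knockdown group, without overlap. For mt-Co2 it was 0.928%, 0.690% and 0.597% against 1.63%, 0.840% and 1.05%, and for mt-Atp6 0.325%, 0.437% and 0.211% against 0.819%, 0.400% and 0.508%. The share of mt-Nd3 went the other way, at 0.207%, 0.277% and 0.261% against 0.258%, 0.149% and 0.141%. In these 4 genes the highest share was 1.97 to 3.88 times the lowest.

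**Figure D3:**
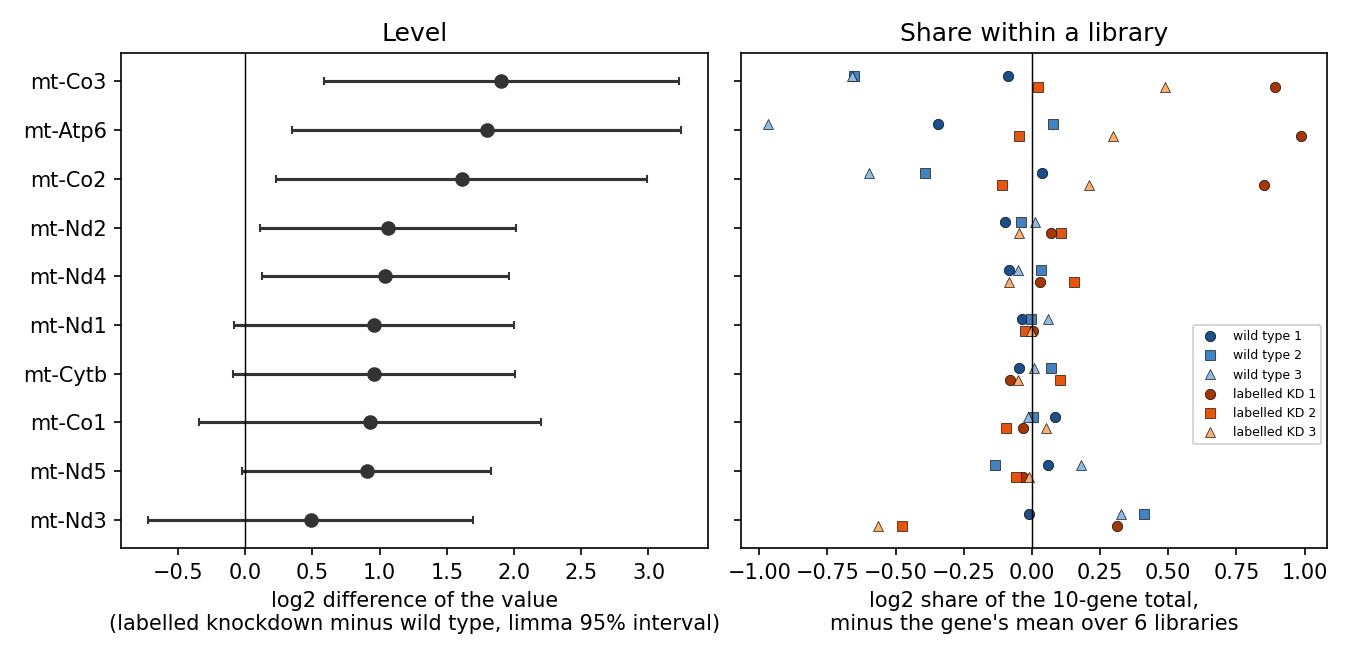
The left panel gives the log2 difference of each gene with its 95% interval from limma; the right panel gives each library's log2 share of the 10-gene total minus the gene's mean over the 6 libraries. In the right panel mt-Nd1, mt-Nd2, mt-Nd4, mt-Nd5, mt-Co1 and mt-Cytb stay near 0, and mt-Co3, mt-Atp6, mt-Co2 and mt-Nd3 spread widely.

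None of these relative differences passed the test. With each library divided by its 10-gene total and all 14025 genes fitted again, 0 of the 10 were called by limma, where 0.0143% of all genes were called higher and 2.59% lower. At an unadjusted p under 0.05 there were 0 of the 10, beside 0.128% of all genes higher and 39% lower, and only mt-Co3 did not overlap between the groups, beside 0.143% higher and 53.9% lower. The median log2 difference over all genes was -0.96 in that fit, because the totals differ between the groups. The relative log2 difference was 0.93 for mt-Co3 (SE 0.52, limma adjusted p = 0.137), 0.82 for mt-Atp6 (SE 0.52, adjusted p = 0.173), 0.64 for mt-Co2 (SE 0.51) and -0.49 for mt-Nd3 (SE 0.53). For the other 6 genes it lay between -0.07 and 0.09. The limma errors borrow from genes whose relative values spread widely, and the SE from each gene's own libraries was from 0.0292 (mt-Nd1) to 0.430 (mt-Atp6). An exact two-sided permutation test of each share gave p = 0.1 for mt-Co3, the smallest p that 3 against 3 libraries allow, and a larger p for the other 9. Without the library labelled knockdown replicate 2, mt-Co3 (1.16, limma adjusted p = 0.0225) and mt-Atp6 (1.05, adjusted p = 0.0373) were called. The median log2 difference of all genes in that fit was -1.27. The share of all genes called in it was not worked out, so these calls have no background to be read against.

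Of the mitochondrial protein genes that were not chosen, mt-Nd6 and mt-Nd4l followed the same split and mt-Atp8 did not, being low with no shared window found. The gene mt-Nd6, a complex I gene on the other strand at chrM:13552-14070 with no shared window, was at 10362, 8268 and 8064 in wild type, against 30593, 12370 and 14226 in the labelled knockdown group. It is 519 bases long and overlaps mt-Nd5 by 14 bases on the opposite strand. The sources used here do not say whether the counting used strand. The gene mt-Nd4l, with 98.8% of its windows shared, was at 55.4, 58.4 and 84.5 against 542, 185 and 915. It was 1 of only 2 genes called higher relative to the 10-gene total (log2 difference 1.82, limma adjusted p = 0.0337), the other being Gm17428, named after its value was seen. The gene mt-Atp8, which overlaps mt-Atp6 by 43 bases, was at 87.7, 28.4 and 25.0 against 384, 39.1 and 201. The chromosome 1 copies of mt-Co2 and mt-Atp6 leave 233 bases between them, where mt-Co2 and mt-Atp6 leave 230 on the mitochondrial map, and the sequence in that gap was not analysed here.

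Nuclear genes of the same complexes pointed the same way but by less, and none was called. Of 36 tested nuclear subunits of complex I, 36 had a higher mean in the libraries labelled knockdown, with a median log2 difference of 0.34. For complex III it was 9 of 9 (median 0.35), for complex IV 13 of 14 (0.35), for ATP synthase 15 of 16 (0.32), and for complex II, which has no mitochondrially encoded subunit, 3 of 4 (0.05). Among those with the smallest p, the complex I gene Ndufb3 was at 0.43, the complex III gene Uqcrq at 0.51 and the complex IV gene Cox8b, a form made in heart and skeletal muscle, at 1.01. Without the library labelled knockdown replicate 1 these medians were 0.08 for complex I, -0.11 for complex II (1 of 4 higher), 0.02 for complex III, 0.07 for complex IV and 0.04 for ATP synthase, beside 0.63 for the 10 mitochondrial genes.

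The mitochondrial and nuclear sides of the complexes did not keep one ratio. The 79 nuclear subunit genes summed to 21037, 20689 and 19220 in wild type, against 37497, 22730 and 19668 in the labelled knockdown group. The 10-gene total was 5.90, 4.80 and 4.68 times that sum in wild type, against 9.25, 5.72 and 9.49 times in the labelled knockdown group. Replicate 3 of the labelled knockdown group had a nuclear sum within the wild-type range, and its 10-gene total of 186557 was above the 124157 of the highest wild-type library.

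Markers of heart muscle were high with the total in some libraries only. All 12 markers had a higher mean in the libraries labelled knockdown (median log2 difference 0.77), with none at 0. Their sum was 9674, 9427 and 8062 in wild type, against 28238, 13630 and 8240 in the labelled knockdown group. The 10-gene total was 12.8, 10.5 and 11.2 times that sum in wild type, against 12.3, 9.54 and 22.6 times in the labelled knockdown group. In replicates 1 and 2 of that group the total was thus near the wild-type multiple of the muscle sum, and in replicate 3 it was above it at a muscle sum within the wild-type range. Over a longer list of 18 heart muscle genes, replicate 3 summed to 9712, below the wild-type range of 10074 to 11502. When the heart muscle score was added to the fit as a covariate, none was called and the log2 differences were smaller: mt-Nd1 went from 0.96 to 0.53, mt-Nd2 from 1.06 to 0.60, mt-Co1 from 0.93 to 0.53, mt-Co2 from 1.61 to 0.87 and mt-Atp6 from 1.80 to 1.02. The 9 genes other than mt-Nd3, which was at -0.30, lay between 0.49 and 1.27. The score was 1.29 in the library labelled knockdown replicate 1 and from -0.45 to 0.23 in the others. Leaving that library out gave similar values, such as 0.57 for mt-Nd1 and 0.54 for mt-Co1. In this fit the heart muscle score and that library therefore cannot be told apart. In such bulk tissue fewer cells of a type and less RNA per cell cannot be told apart.

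**Figure D4:**
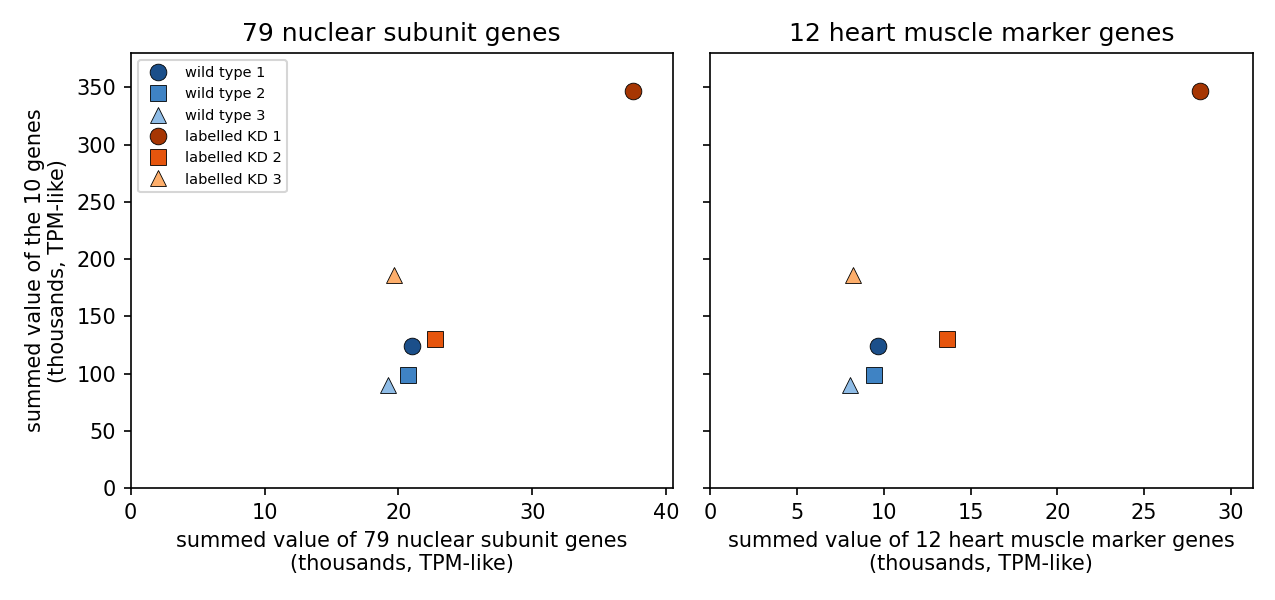
Each point is a library; the y axis is the summed value of the 10 genes and the x axis the summed value of 79 nuclear subunit genes (left) or 12 heart muscle markers (right). The library labelled knockdown replicate 1 is far to the upper right in both panels, and replicate 3 of that group lies above the wild-type libraries at a similar x.

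Marker sums of other cell types differed between the libraries too. All 12 macrophage markers had a lower mean in the libraries labelled knockdown (none at 0), their sum being 7734 to 10402 in wild type and 3613 to 7209.5 in the libraries labelled knockdown. The 5 erythroid genes, all with a higher mean and none at 0, summed to 668, 324 and 252 in wild type, against 2579, 346 and 1039 in the labelled knockdown group, highest in the same libraries, replicates 1 and 3, as the mitochondrial total. The 6 endothelial markers, all with a higher mean and none at 0, summed to 604 to 641 against 1317.5, 540 and 888. Fibroblast markers were lower for 5 of 8 (none at 0), with sums of 18390 to 21532 against 13060 to 20409. All 6 B cell markers were lower (none at 0), with sums of 1967 to 3363 against 508 to 2106. Adipocyte markers were lower for 5 of 6, with sums of 832 to 1706 against 230 to 2011, Cidec and Plin1 being at 0 in at least 1 library, and all 5 mesothelial markers were lower (none at 0), with sums of 75.0 to 112 against 18.6 to 156. The part of these differences in tissue makeup in the mitochondrial values was not tested.

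Genes that serve the mitochondrial genome differed by small amounts, and none was called. Of 17 genes of mitochondrial transcription and genome copying 16 had a higher mean (median log2 difference 0.18), with no overlap between the groups and the higher values in the libraries labelled knockdown for 5, beside 12.6% of all genes tested. Among them were Mterf3, a regulator of mitochondrial transcription (0.58, SE 0.13), and Polrmt, the mitochondrial RNA polymerase (0.29, SE 0.12). Polrmt was at 6.83, 7.50 and 6.23 in wild type, against 9.22, 8.68 and 7.98 in the labelled knockdown group. Such low values move in steps of 0.889 to 1.163 that differ between libraries, so a lack of overlap among them is uncertain. Without the library labelled knockdown replicate 1 the median of this list was 0.19. Of 23 genes of mitochondrial RNA processing and stability 15 were higher and 8 lower (median 0.07), with Fastkd1, which encodes a mitochondrial RNA-binding protein, at 0.55 (SE 0.12). Without the same library 11 of the 23 were higher, with a median of -0.0040. Of 8 tested regulators of mitochondrial biogenesis 7 were higher (median 0.15), among them the coactivator Ppargc1a at 0.63 (SE 0.35), and without that library 6 of 8 were (median 0.07). Ppargc1a was also only a few steps high, at 1.95, 2.83 and 1.71 in wild type, against 6.76, 3.85 and 2.00 in the labelled knockdown group.

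RNAs that stay in the nucleus also had higher means, and none was called. All 4 tested had a higher mean, with Neat1 at a log2 difference of 1.10 (SE 0.25), Airn at 0.94 (SE 0.14) and Malat1 at 0.66 (SE 0.19), and the median was 0.80 both with and without the library labelled knockdown replicate 1.

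The genes whose pattern was most like the 10-gene total were found by the Pearson correlation of log2 values over the 6 libraries among 10890 genes outside the mitochondrial genome with a mean of at least 5. The highest were Ppp6r2, Tmem201, Plxna2, Unc45b, Ndufaf6 and Sema6a, with r from 0.988 to 0.996. Unc45b, a chaperone of muscle myosin, was at 13.7, 11.2 and 11.4 in wild type, against 35.1, 14.4 and 17.97 in the labelled knockdown group. Ndufaf6, a complex I assembly factor, was at 9.76, 9.36 and 8.91 against 15.98, 10.6 and 12.98. The lowest were Bicc1, Calhm2, Srpx, Sec61g, Cd302 and Slc41a2, with r from -0.995 to -0.991. With so few libraries, 447 genes had r over 0.9, and 1 library lies far from the others. The step of the values was lowest in wild-type replicate 3 (0.889) and highest in the library labelled knockdown replicate 1 (1.163). The 10-gene total was also lowest and highest in these, at 89895 and 346896. In wild type Ppp6r2, at 18.5, 17.8 and 17.0, fell with the step, which was 0.974, 0.932 and 0.889. The part of the step in these correlations was not tested.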

How the data were processed

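Poly(A)-enriched RNA was sequenced from 6 libraries, per the labels' protocols, which name 2 library kits without saying which library used which. Per the submitters' processing notes, reads were placed on mm10. For the aligner, the quantifier and the handling of reads with several matches, nothing is given in the sources used here. The deposited values, in 16205 lines, are an adjusted score close to TPM. Of values above 0.5 and below 3.5 steps, 97.2% to 100% by library lay within 0.15 of a whole multiple of a step of 0.889 to 1.163. The library labelled knockdown replicate 1 also held 1078 values between 0 and 0.2. No count model was used, and depth is unknown. Where a symbol was repeated, the line of highest mean stayed (6 left out).

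Groups were compared with limma 3.58.1 in R 4.3.3 on log2(value + 1), with an intensity trend, for 14025 genes with a mean of at least 1, adjusted over all at 0.05. The same limma test was the one planned when the unit was taken to be TPM. A second fit divided each library by its 10-gene total. Single shares were tested by exact permutation (SciPy 1.17.1), which, like the errors from each gene's own libraries, was added after the values were seen. Exact windows of 50 and 100 bases were searched on both strands in GENCODE M21 transcripts, and copies were aligned without gaps; the search was made after the levels were seen, and Gm11410 was picked by hand. The 65% and 90% limits followed the values. The 10 genes, the lists and the tests were chosen with earlier results of these data known. Named genes are the 10, the other mitochondrial genes, up to 3 per list with the smallest p, and the 6 most and 6 least alike in pattern.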

Additional observations from a re-analysis of the deposited data

How the results depend on the processing

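With limma, 0 of the 10 genes were called under every alternative run: pseudocounts of 0.1 and 5, no filter or a mean of at least 5, 3 other scalings, no intensity trend, the heart muscle score as a covariate, the replicate number as a block, and each library left out. Over all genes 0 were called, and 0 to 13 with a library left out (2 without wild-type replicate 2, 13 without the library labelled knockdown replicate 3); at an unadjusted p under 0.05 there were 1162 higher and 919 lower. Libraries with the same replicate number share only the number: their deviations from the group means correlated at 0.0559, 0.0608 and 0.143, and wild-type replicate 1 correlated best with another number (0.0595). With the replicate block 0 genes were called in the level fit, and 0 of the 10 in the relative fit. Relative to the 10-gene total, 0 to 2 of the 10 were called with a library left out, and 0 otherwise. The share of all genes called in those relative fits was not worked out. Scaling the columns to a sum of 1000000 moved the median of all genes to -0.13, and there the 10 genes ran from 0.34 (mt-Nd3) to 1.76 (mt-Co3). The level difference of mt-Nd3 turned to -0.17 without the library labelled knockdown replicate 1 (-0.17 to 0.93 with a library left out) and to -0.30 with the heart muscle covariate. Relative differences near 0 changed sign: mt-Nd1 ranged from -0.037 to 0.011, mt-Nd5 from -0.16 to 0.0036 and mt-Cytb from -0.076 to 0.015 with a library left out. The heart muscle covariate put mt-Cytb at 0.0012. With the 6 genes with under 65% of their windows shared as reference, an alternative chosen after seeing the data, mt-Nd1 was at 4.5e-05. The causes of these sign changes were not tested. With the sum of genes outside the mitochondrial genome as denominator, the 10-gene total differed by 15.3 percentage points, and with a library left out the difference over the whole column ran from 5.02 to 13.2. With no counts in the table, the part of counting error cannot be given.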
